A study of Mus musculus with 12 samples.

Results

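The genes described here mark the identity of the heart's chambers. Atrial identity was followed by Myl4, Myl7, Sln, Bmp10 and Tbx5, and ventricular identity by Myl2, Myl3, Irx4 and Hey2. They were chosen by symbol, matched through NCBI Gene identifiers, in the deposited table of FPKM (a level scaled by the length of the gene and the size of the library). Of these 9 genes, 8 were among the 18079 of the table, 4 atrial and 4 ventricular, and Bmp10 was not analysed here. The choice was made with earlier results of these libraries known, among them that Myl4, Myl7 and Sln were high in single libraries, so the levels of these 3 genes are given as a description, with no test.

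The RNA came from left ventricular muscle of C57BL/6 mice (male C57BL/6J in the methods of the study), which was flash frozen and extracted with Trizol 4 weeks after surgery, at an age of 12 weeks. Mice had received banding of the descending aorta (AB), which loads the left ventricle with pressure, or a sham operation at 8 weeks of age. From 1 day ahead of surgery they were injected intraperitoneally with hispidulin, a plant flavonoid, at 20 mg/kg/day or with its solvent dimethyl sulfoxide (DMSO). The 4 groups were the sham groups DMSO+Sham and Hispidulin+Sham and the banded groups DMSO+AB and Hispidulin+AB, with 3 mice and 3 libraries each, and every library carried its own animal number. No allele or transgene separated the groups.

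Atrial and ventricular muscle cells build the same contractile apparatus from different isoforms. Each myosin head carries an essential and a regulatory light chain, which are Myl4 and Myl7 in the atria and Myl3 and Myl2 in the ventricles, and atrial cells also make sarcolipin (Sln), a small inhibitor of the calcium pump of the sarcoplasmic reticulum. The transcription factors Irx4 and Hey2 keep atrial genes off in ventricular cells, and Tbx5 is a T-box factor of the atria and the left ventricle. After birth Myl4 and Myl7 are low in ventricular muscle. In bulk tissue, a change in the share of a cell type and a change in RNA per cell cannot be told apart.

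The depth of the libraries is unknown, since the table holds FPKM without counts, and counting errors are therefore not given. FPKM summed to 535235 to 567027 per library, and Spearman correlations across genes between libraries of a group ran from 0.968 to 0.986. The library DMSO+Sham 3 stood apart, with 126 genes more than 2-fold above all the other libraries, against 0 to 16 genes in each of the other 11. All 8 measured members were among the 11664 genes that reached an FPKM of 1 in 3 or more libraries, which were tested together with limma on log2(FPKM + 1).

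The ventricular light chains, which define the labelled tissue, were among the most abundant RNAs of every library. Myl2 was the more abundant, with an FPKM of 13135, 16920 and 11178 in DMSO+Sham, 14727, 16103 and 13447 in Hispidulin+Sham, 14888, 12904 and 12722 in DMSO+AB, and 16156, 14402 and 14324 in Hispidulin+AB. Myl3 had an FPKM of 7322, 8355 and 6602 in DMSO+Sham, 7729, 8012 and 7224 in Hispidulin+Sham, 8125, 7846 and 8678 in DMSO+AB, and 8079, 7902 and 7759 in Hispidulin+AB. Both lay above the mean level of over 99.9% of the genes in the table (percentiles 99.99 and 99.97), and the highest library exceeded the lowest by only 1.51-fold for Myl2 and 1.32-fold for Myl3. No library stood apart in either gene, and the groups overlapped. The regulators were far lower: Irx4 had a mean FPKM of 11.8 ± 2.60 (SD, n = 12), Tbx5 of 10.6 ± 3.12 and Hey2 of 2.46 ± 0.627. Irx4 and Tbx5 are neighbours in this order and did not differ beyond their spread.

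**Figure D1:**
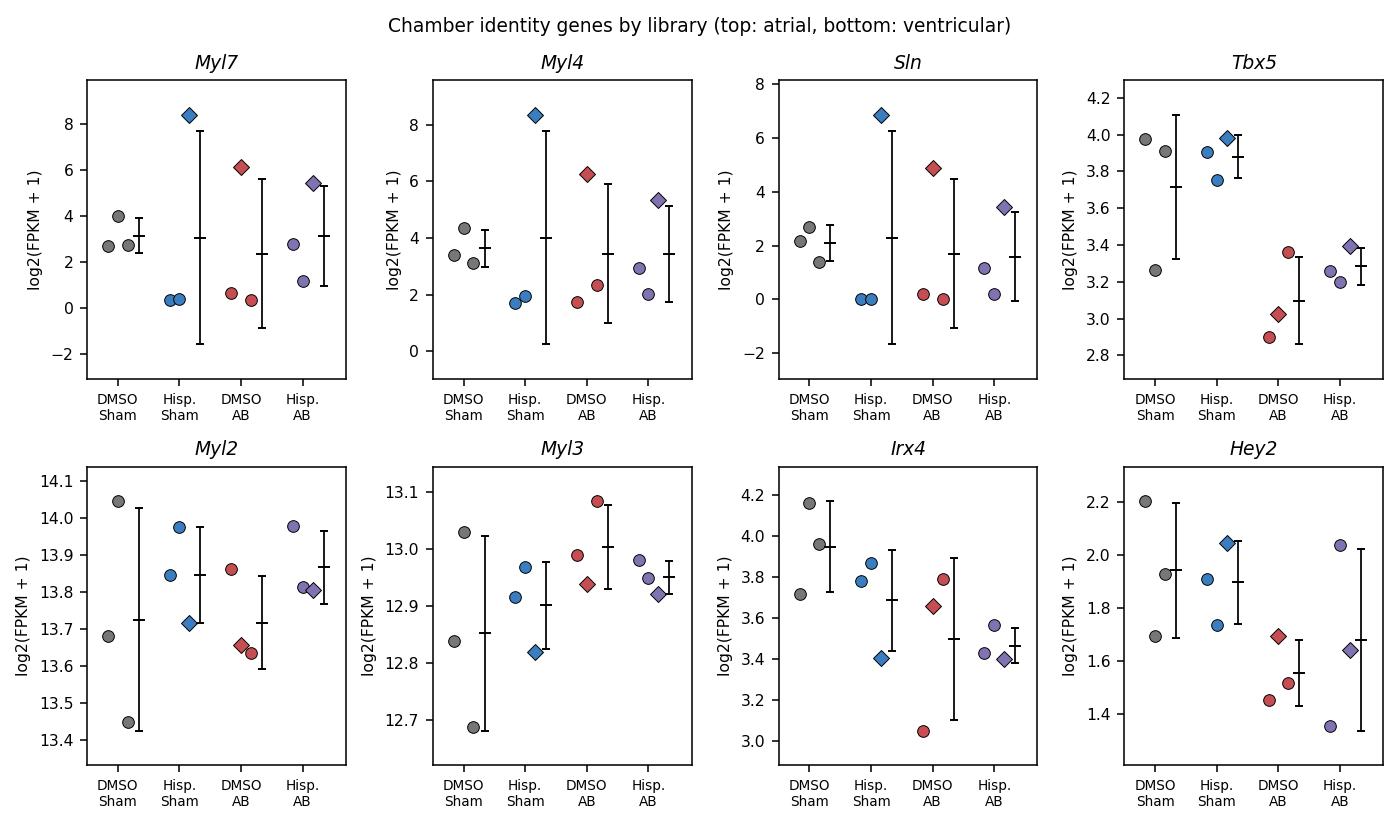
Level of each measured member on the log2(FPKM + 1) scale in the 12 libraries by group (Hisp., hispidulin; AB, aortic banding). Circles and diamonds are single libraries, diamonds mark Hispidulin+Sham 3, DMSO+AB 2 and Hispidulin+AB 3, and the bar beside each group is the mean ± SD of its 3 libraries. Myl7, Myl4 and Sln are spread over several log2 units, with these 3 libraries the highest, while Myl2 and Myl3 differ by less than 1 log2 unit, and Tbx5 is lower in AB than in all sham libraries other than DMSO+Sham 2.

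The atrial light chains and sarcolipin varied far more between libraries, and 3 libraries were above the rest. Myl7 had an FPKM of 5.33, 15.0 and 5.50 in DMSO+Sham, 0.27, 0.29 and 333 in Hispidulin+Sham, 0.56, 67.5 and 0.24 in DMSO+AB, and 5.76, 1.2 and 42.3 in Hispidulin+AB. Myl4 had an FPKM of 9.62, 19.5 and 7.68 in DMSO+Sham, 2.26, 2.87 and 325 in Hispidulin+Sham, 2.34, 75.8 and 4.07 in DMSO+AB, and 6.63, 3.07 and 39.0 in Hispidulin+AB. Sln had an FPKM of 3.54, 5.49 and 1.59 in DMSO+Sham, was listed at 0 in Hispidulin+Sham 1 and 2 and at 116 in Hispidulin+Sham 3, had 0.16, 28.6 and a listed 0 in DMSO+AB, and 1.23, 0.15 and 9.73 in Hispidulin+AB. The same libraries were high for all 3 genes: Hispidulin+Sham 3 came first, DMSO+AB 2 second and Hispidulin+AB 3 the third. The levels were graded, and the lowest of the 3 was 2.81-fold above the highest of the others (DMSO+Sham 2) for Myl7. In the other 9 libraries Myl7 stayed between 0.24 and 15.0, with a median of 1.2, and its next highest values were those of the 3 DMSO+Sham mice and of Hispidulin+AB 1. These 3 libraries came from 3 different groups, and each treatment and each operation is represented among them.

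Set against its ventricular partner, the atrial form was still a small part of the light chain RNA. Myl7 made up 2.42% of the summed FPKM of Myl7 and Myl2 in the library Hispidulin+Sham 3, against 0.521% for DMSO+AB 2 and 0.294% for Hispidulin+AB 3. In the other 9 libraries that share ran from 0.0018% to 0.0888%. For the essential light chains, Myl4 made up 4.31%, 0.957% and 0.5003% of the sum of Myl4 and Myl3 in the same 3 libraries, and 0.0288% to 0.233% in the other 9. The share of the atrial form was higher for the essential than for the regulatory pair in each of the 12 libraries. Myl2 in Hispidulin+Sham 3 was 13447 against 14727 and 16103 in the other two mice of its group.

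**Figure D2:**
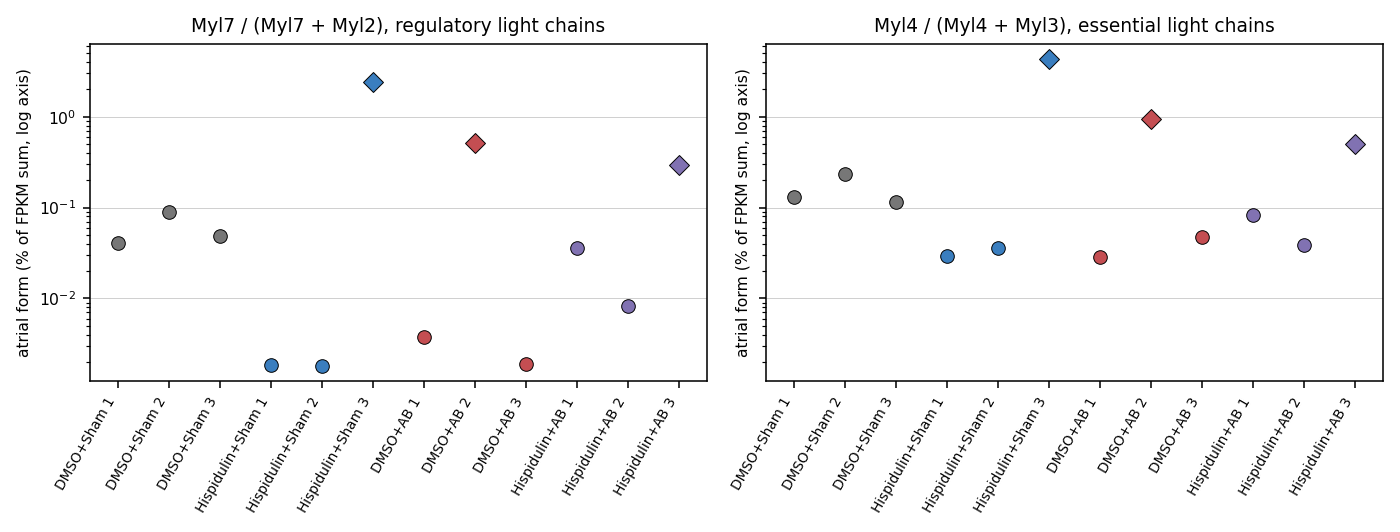
Atrial light chain as a percentage of the FPKM sum of the atrial and the ventricular form, on a log axis, in each of the 12 libraries, for the regulatory pair (left) and the essential pair (right). Points are single libraries coloured by group, and diamonds mark the 3 libraries with high atrial genes, which lie between 0.294% and 2.42% on the left and between 0.5003% and 4.31% on the right, above all other libraries.

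The ratios between these genes were set side by side in the 3 libraries. The ratio of Myl4 to Myl7 FPKM was 0.977 for Hispidulin+Sham 3, 1.12 for DMSO+AB 2 and 0.923 for Hispidulin+AB 3. The ratio of Sln to Myl7 was 0.347, 0.424 and 0.230 in these libraries. Mybphl, which encodes a myosin-binding protein of atrial muscle, was listed at 21.7, 4.74 and 2.53, and its ratio to Myl7 was 0.065, 0.0702 and 0.0599. In the 9 other libraries the ratio of Myl4 to Myl7 ran from 1.15 to 17.0, that of Sln to Myl7 from 0 to 0.664 and that of Mybphl to Myl7 from 0 to 0.448. Some of these lay near the values of the 3 libraries, as in DMSO+Sham 3 with 0.289 for Sln and 0.0691 for Mybphl. Tbx5 varied far less: it had an FPKM of 14.8, 7.15 and 9.51 in the 3 libraries, against 12.5 to 14.0, 6.47 to 9.27 and 8.18 to 8.56 in the other mice of the same groups. It was slightly above its group in Hispidulin+Sham 3 and Hispidulin+AB 3 but not in DMSO+AB 2.

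Over all genes tested, those most like Myl7, by Pearson correlation of log2(FPKM + 1) over the 12 libraries, were Sln (r = 0.985), Myl4 (0.984), Mybphl (0.944), Hamp (0.905) and Lmntd1 (0.899). For Myl4 they were Sln (0.993), Myl7, Mybphl (0.978), Lmntd1 (0.918) and Alg13 (0.898), and for Sln they were Myl4, Myl7, Mybphl (0.976), Alg13 (0.914) and Lmntd1 (0.908). Hamp encodes hepcidin, the hormone that limits iron export from cells. These correlations are descriptions over libraries that share a group structure. Without the 2 libraries farthest from the median of Myl7 (Hispidulin+Sham 3 and DMSO+AB 2), r was 0.972 for Sln and 0.968 for Myl4, and it was lower for Hamp (0.779) and Lmntd1 (0.753). Hispidulin+AB 3, with Myl7 at 42.3, was kept, so these values still include a library of high atrial genes. The ventricular genes had other neighbours, led for Myl2 by Ltb4r2 (0.919), Snrpf (0.918), Hspa12a (0.905), Gpr35 (0.902) and Ezr (0.892), and for Irx4 by Eid2 (0.926), Rbpms (0.907), Kcnj11 (0.907), Ficd (0.884) and 4931414P19Rik (0.883).

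Of the 11664 genes tested, 80 (0.686%) had each of these 3 libraries above each of the other 9, and 28 had them below. Ranked by the lowest of the 3 over the highest of the 9, the top of the 80 was Myl7 (2.81-fold), followed by Myl4 (2.00-fold), Sln (1.77-fold), Mybphl (1.66-fold), Lmntd1 (1.49-fold) and Hamp (1.45-fold), and all others were under 1.4-fold. The libraries had been set apart on Myl7, Myl4 and Sln themselves, so the place of these 3 genes in that list is no finding. Lmntd1 reached an FPKM of 1 in these 3 libraries alone (3.06, 1.1 and 1.1, against at most 0.74 in the others), and so passed the filter on low values only through them. Mybphl and Hamp passed only through them as well. Elsewhere Mybphl reached 1 only in DMSO+Sham 2 (1.52) and Hamp only in DMSO+Sham 3 (1.2). The places of Lmntd1, Mybphl and Hamp in that list, and their correlations with Myl7, Myl4 and Sln, are therefore no findings either. Hispidulin+Sham 3 had 12 genes more than 2-fold above all the other libraries, among them Myl7, Myl4, Sln, Mybphl, Lmntd1, Sbk3, Hbb-bt and Alas2. The last 2 of these belong to red cells, and the summed FPKM of the 5 red cell markers was 10251 in that library against 2237 to 4981 in the other 11. The part of red cell RNA in the results was not tested.

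**Figure D3:**
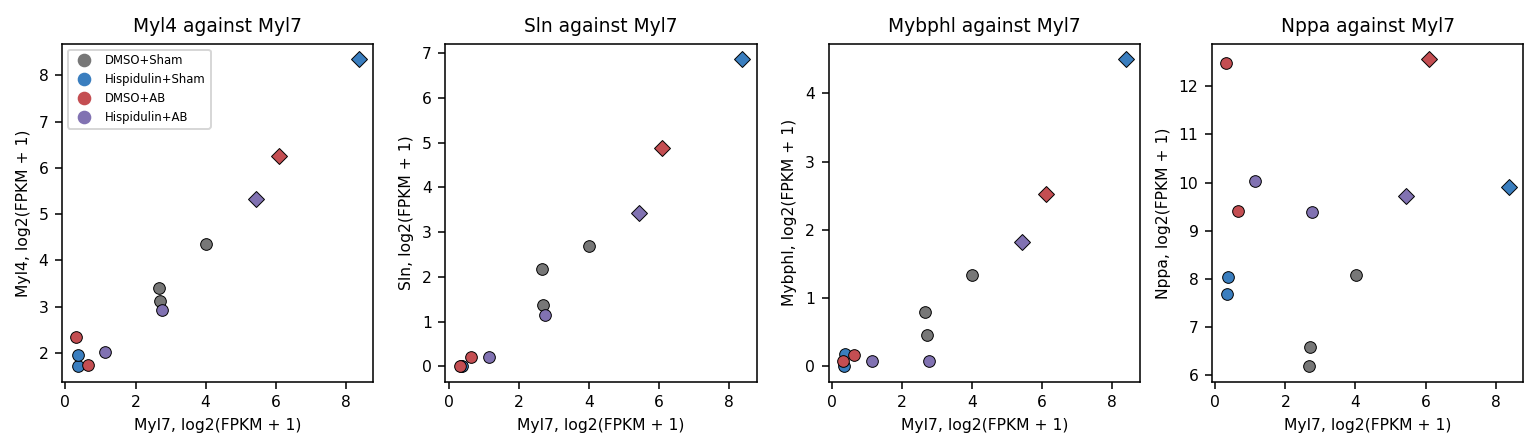
Level of Myl4, Sln, Mybphl and Nppa against that of Myl7, all on the log2(FPKM + 1) scale, with 1 point per library coloured by group and diamonds for the 3 libraries with high atrial genes. Myl4, Sln and Mybphl rise with Myl7 over the 12 libraries, whereas the highest Nppa values belong to DMSO+AB 2 and DMSO+AB 3, which differ widely in Myl7.

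The stretches upstream of 2 of the genes that were high together, Myl7 and Mybphl, are shown beside those of Nppa, an atrial gene with a different pattern here, and of the ventricular Myl3. They are the 250 bases ahead of the annotated start in RefSeq (GRCm38.p6), written 5′ to 3′ on the strand of the gene, at chr11:5898783-5899032 on the minus strand for Myl7, chr3:108364661-108364910 on the plus strand for Mybphl, chr4:148000472-148000721 on the plus strand for Nppa and chr9:110763428-110763677 on the plus strand for Myl3. Capitals mark matches on either strand to a GATA motif (NGATAN with A or T as its first letter and A or G as its last), the T-box motif AGGTGT, the NKX2-5 motif TNAAGTG, the CArG box or the MEF2 motif.
Myl7: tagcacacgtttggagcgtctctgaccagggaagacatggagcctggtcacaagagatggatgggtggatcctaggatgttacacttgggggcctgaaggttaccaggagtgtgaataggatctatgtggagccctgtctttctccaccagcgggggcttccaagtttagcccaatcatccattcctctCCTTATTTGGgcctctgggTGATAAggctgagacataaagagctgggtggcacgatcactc
Mybphl: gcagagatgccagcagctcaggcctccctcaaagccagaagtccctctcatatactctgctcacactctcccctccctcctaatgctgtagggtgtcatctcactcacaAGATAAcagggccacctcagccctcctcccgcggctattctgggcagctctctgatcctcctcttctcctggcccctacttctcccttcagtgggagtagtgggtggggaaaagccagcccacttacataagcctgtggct
Nppa: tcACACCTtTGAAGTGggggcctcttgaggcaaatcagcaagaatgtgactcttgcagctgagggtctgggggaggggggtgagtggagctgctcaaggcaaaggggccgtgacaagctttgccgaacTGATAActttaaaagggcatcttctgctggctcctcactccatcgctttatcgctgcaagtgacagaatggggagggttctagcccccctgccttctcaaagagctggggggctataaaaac
Myl3: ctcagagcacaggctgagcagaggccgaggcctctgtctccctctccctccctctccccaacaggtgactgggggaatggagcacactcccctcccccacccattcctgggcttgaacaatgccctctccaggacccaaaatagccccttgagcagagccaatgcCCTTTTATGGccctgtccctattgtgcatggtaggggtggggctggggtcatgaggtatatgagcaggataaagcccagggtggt

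A GATA motif was found in Myl7 (42 to 37 bases ahead of the start), in Mybphl (141 to 136) and in Nppa (122 to 117). GATA motifs were present in 26.5% of the 32851 promoter windows of this length. A CArG box, the motif bound by serum response factor, lay 61 to 52 bases ahead of the start in Myl7 and 85 to 76 bases ahead in Myl3, and was present in 1.47% of all windows. The T-box motif, the kind of site that Tbx5 binds, was found in Nppa only, 248 to 243 bases ahead of the start (11.8% of all windows), next to an NKX2-5 motif at 241 to 235 (10.1%). No MEF2 motif was found in these 4 windows (2.92% of all), and no matches overlapped. These matches describe the letters in the windows and say nothing about binding.

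Since the 3 high libraries belong to 3 groups, they set the group means of Myl4, Myl7 and Sln. The mean FPKM of Myl7 was 8.62 ± 5.55 (SD, n = 3) in DMSO+Sham, 111 ± 192 in Hispidulin+Sham, and among banded mice 22.8 ± 38.8 in DMSO+AB against 16.4 ± 22.5 in Hispidulin+AB, an SD larger than the mean in 3 of the 4 groups. With the high library of each group set aside, the means of Myl7 fell to 0.28 in Hispidulin+Sham, to 0.40 in DMSO+AB and to 3.48 in Hispidulin+AB (n = 2 each), all below DMSO+Sham. Myl4 went in the same way from 110 to 2.56 in Hispidulin+Sham, from 27.4 to 3.21 in DMSO+AB and from 16.2 to 4.85 in Hispidulin+AB, against 12.3 in DMSO+Sham. The order of the groups was thus fixed by single mice: Hispidulin+Sham was the highest group with all libraries and the lowest without its replicate 3.

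The differences between groups moved with single libraries. For Myl7 in DMSO+AB against DMSO+Sham, the log2 difference was -0.77 (SE 2.05) with all libraries and -2.65 without DMSO+AB 2. In Hispidulin+AB against Hispidulin+Sham it was 0.08 (SE 2.05) with all libraries, 2.75 without Hispidulin+Sham 3 and -1.08 without Hispidulin+AB 3. In Hispidulin+Sham against DMSO+Sham, the difference of -0.09 became -2.77 without Hispidulin+Sham 3, and in Hispidulin+AB against DMSO+AB the difference of 0.76 became 2.63 without DMSO+AB 2 and -0.40 without Hispidulin+AB 3. Leaving out other libraries also turned the sign of Myl7, to 0.25 without DMSO+AB 3 in DMSO+AB against DMSO+Sham and to a positive value without Hispidulin+Sham 1 between the sham groups. Without Hispidulin+Sham 3, Myl4 and Sln turned from -0.58 and -0.69 to 1.60 and 1.59 in Hispidulin+AB against Hispidulin+Sham, and from 0.38 and 0.20 to -1.80 and -2.08 between the sham groups. With all 3 libraries left out together, Myl7 differed by -2.65 in DMSO+AB against DMSO+Sham, by 1.59 in Hispidulin+AB against Hispidulin+Sham, by 1.47 in Hispidulin+AB against DMSO+AB and by -2.77 between the sham groups. No difference of these 3 genes between groups is therefore given with a test.

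**Figure D4:**
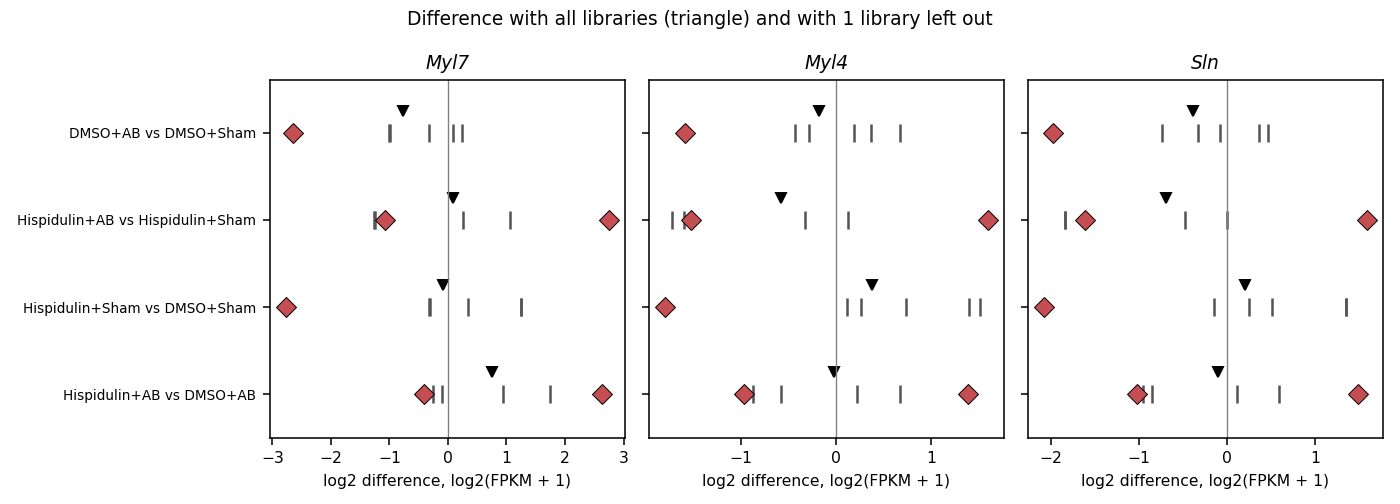
Log2 difference of Myl7, Myl4 and Sln in 4 comparisons, on the log2(FPKM + 1) scale. Black triangles are the values with all libraries, ticks the values with 1 library of the compared groups left out, and red diamonds those that leave out Hispidulin+Sham 3, DMSO+AB 2 or Hispidulin+AB 3. The diamonds lie at or near the ends of each range and on both sides of 0 in 2 of the 4 comparisons.

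Tbx5, the T-box factor, was lower after banding. It had an FPKM of 14.7, 8.61 and 14.0 in DMSO+Sham, 14.0, 12.5 and 14.8 in Hispidulin+Sham, 6.47, 7.15 and 9.27 in DMSO+AB, and 8.56, 8.18 and 9.51 in Hispidulin+AB. Among hispidulin-treated mice the banded and the sham mice did not overlap, with the banded mice lower as in 11.8% of all genes tested, while among DMSO-treated mice DMSO+Sham 2 lay within the range of the banded mice. Over both treatments, Tbx5 was 13.1 ± 2.35 (SD, n = 6) in sham and 8.19 ± 1.19 (n = 6) in AB, a log2 difference of -0.61 (SE 0.13, limma adjusted p = 0.0163). It was the 1 member called among the 5 that were given a test (Tbx5, Irx4, Hey2, Myl2 and Myl3), against 7.39% of all genes tested in that comparison, of which 3.87% were lower. The difference was close to the same with each treatment, at -0.62 (SE 0.18, adjusted p = 0.0709) in DMSO and -0.60 (SE 0.18, adjusted p = 0.488) in hispidulin, and the interaction was 0.02 (95% confidence interval -0.53 to 0.58, adjusted p = 0.9995).

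The call for Tbx5 over both treatments held in 21 of 23 alternatives in the fit, including each of the 12 that left out a single library, with log2 differences from -0.72 to -0.54. It did not hold with a term for the series of animal numbers (-0.55, adjusted p = 0.0527) or with the 3 libraries of high atrial genes left out together (-0.59, adjusted p = 0.162), and the adjusted p ranged from 0.000796 to 0.162 over the alternatives. It was also lost under the stricter criteria of the study (a log2 difference of 1 or more in size, with the adjusted p not above 0.001). The animal numbers of the labels fall into a series from 5000, another from 6000 and 1 mouse outside both, and what the series stand for is not given. Within the series from 6000, Tbx5 was 6.47 to 8.56 in 4 banded mice and 14.0 to 14.8 in 2 sham mice, and within the series from 5000 it was 9.27 to 9.51 in 2 banded and 8.61 to 14.0 in 3 sham mice, which overlapped. With the mean level of Myl4 and Myl7 as a covariate, the difference was -0.61 (adjusted p = 0.0226).

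**Figure D5:**
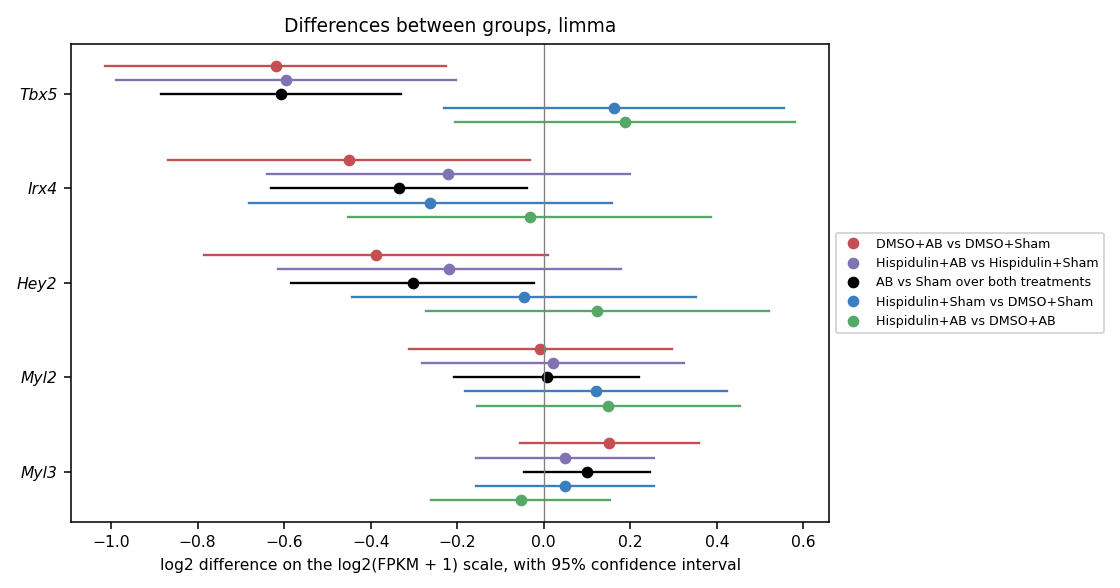
Log2 difference, on the log2(FPKM + 1) scale, with its 95% confidence interval for the 5 members that were given a test, in 5 comparisons shown by colour. Tbx5 lies below 0 in the 3 comparisons of AB with sham and has intervals across 0 in both comparisons of hispidulin with DMSO, and Myl2 and Myl3 have intervals across 0 in all 5.

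Among the ventricular regulators, Irx4 had an FPKM of 12.2, 16.9 and 14.6 in DMSO+Sham, 12.7, 13.6 and 9.59 in Hispidulin+Sham, 7.27, 11.6 and 12.8 in DMSO+AB, and 9.78, 10.8 and 9.55 in Hispidulin+AB. Its sham mice averaged 13.3 ± 2.45 and its banded mice 10.3 ± 1.91 (SD, n = 6 each), a log2 difference of -0.34 (SE 0.14, adjusted p = 0.162), and the groups overlapped. Hey2, a Notch-responsive repressor, had an FPKM of 3.61, 2.24 and 2.81 in DMSO+Sham, 2.76, 2.33 and 3.13 in Hispidulin+Sham, 1.74, 2.24 and 1.86 in DMSO+AB, and 1.56, 3.11 and 2.12 in Hispidulin+AB. Its difference was -0.30 (SE 0.13, adjusted p = 0.180), so neither regulator passed the test, although both had an unadjusted p under 0.05, as did Tbx5 and 23.3% of all genes tested. The sign of both was negative in each alternative for that comparison (23 for Irx4, 22 for Hey2).

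The ventricular light chains did not pass in any comparison. Over both treatments the log2 difference of AB against sham was 0.01 (95% confidence interval -0.21 to 0.22, adjusted p = 0.978) for Myl2 and 0.10 (-0.05 to 0.25, adjusted p = 0.411) for Myl3. For Myl3 the sign turned with quantile normalization, to -0.04. In DMSO+AB against DMSO+Sham, where 5.21% of all genes were called, none of the 5 members given a test was called by limma, and 2 (Tbx5 and Irx4) had an unadjusted p under 0.05, as did 20.4% of all genes. In Hispidulin+AB against Hispidulin+Sham, where 0% of all genes were called, 1 member (Tbx5) had an unadjusted p under 0.05, as 7.26% of all genes did, and with the replicate number as a block 17 genes but no member were called. No member had an unadjusted p under 0.05 in Hispidulin+Sham against DMSO+Sham or in Hispidulin+AB against DMSO+AB, where 2.46% and 3.1% of all genes did and 0% were called. In the comparison of hispidulin with DMSO among banded mice the log2 difference was 0.19 (95% confidence interval -0.21 to 0.58) for Tbx5, -0.03 (-0.45 to 0.39) for Irx4, 0.12 (-0.27 to 0.52) for Hey2, 0.15 (-0.15 to 0.45) for Myl2 and -0.05 (-0.26 to 0.15) for Myl3.

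Other genes enriched in the atria split between both directions after banding. Of 15 on the list, 12 passed the filter on low values, and over both treatments 1 was called higher and 4 lower, where 7.39% of all genes were called and 3.87% were lower, with a median log2 difference of -0.17 against -0.03 over all genes. Nppa, which encodes atrial natriuretic peptide, rose by a log2 difference of 2.85 (SE 0.57, adjusted p = 0.0135). The difference was 4.54 (adjusted p = 0.0121) with DMSO and 1.17 (95% confidence interval -0.59 to 2.93, adjusted p = 0.852) with hispidulin, and the interaction of -3.37 did not pass (adjusted p = 0.9995, unadjusted p = 0.0122). The 4 that fell were Sbk2, a protein kinase (-0.997, SE 0.18, adjusted p = 0.00979), the channel subunits Kcnj3 (-0.96, SE 0.15, adjusted p = 0.00407) and Kcnj5 (-0.58, SE 0.14, adjusted p = 0.0267), which together form the acetylcholine-gated potassium channel, and the lipid transfer protein Stard10 (-0.76, SE 0.14, adjusted p = 0.0112). The banded and sham mice of these 4 did not overlap, as held in this direction for 2.8% of all genes tested. Pam, the enzyme that amidates peptide hormones, was called in DMSO+AB against DMSO+Sham (0.66, SE 0.16, adjusted p = 0.0412).

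Kcnj3 had an FPKM of 13.0, 13.7 and 8.41 in DMSO+Sham, 11.2, 15.1 and 15.2 in Hispidulin+Sham, 7.04, 4.79 and 3.95 in DMSO+AB, and 6.78, 7.49 and 6.39 in Hispidulin+AB. Stard10 had an FPKM of 22.9, 22.2 and 24.8 in DMSO+Sham, 21.9, 22.1 and 43.6 in Hispidulin+Sham, 12.5, 12.4 and 13.4 in DMSO+AB, and 16.4, 17.8 and 15.7 in Hispidulin+AB. Neither gene was raised above its group in DMSO+AB 2 or Hispidulin+AB 3, and Stard10 was so in Hispidulin+Sham 3. With the 3 libraries left out together, Stard10 was still called (-0.57, adjusted p = 0.0347), while Kcnj3 (-0.89, adjusted p = 0.0899), Sbk2 (-0.78, adjusted p = 0.136), Kcnj5 (-0.57, adjusted p = 0.195) and Nppa (2.92, adjusted p = 0.0815) were not.

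Nppa had an FPKM of 71.8, 269 and 94.95 in DMSO+Sham, 204, 264 and 967 in Hispidulin+Sham, 680, 6043 and 5738 in DMSO+AB, and 666, 1047 and 850 in Hispidulin+AB. It was the highest of its group in Hispidulin+Sham 3 and DMSO+AB 2 but not in Hispidulin+AB 3, and DMSO+AB 3 reached a level near that of DMSO+AB 2 with Myl7 at 0.24. The ratio of Nppa to Myl7 was 2.90, 89.5 and 20.1 in the 3 libraries, a wider range than that of Mybphl. Dkk3, a secreted Wnt modulator, was 12.3, 12.1 and 4.62 in the 3 libraries and 0.59 to 3.97 in the other 9, with no call (0.62, SE 0.52, adjusted p = 0.522). Of the remaining genes on the list that passed the filter, Sbk3 (-0.55, adjusted p = 0.379) was high in Hispidulin+Sham 3 at 10.7 against 0.86 to 4.15 elsewhere, and Gja5 (0.09, adjusted p = 0.636), Nr2f1 (0.14, adjusted p = 0.335) and Nr2f2 (0.08, adjusted p = 0.743) were not called. Mybphl passed the filter only through the 3 libraries of high atrial genes, so no test of it is given. Cacna1d, a calcium channel subunit, stayed under an FPKM of 0.5 in all libraries, those of high atrial genes included. Cacna2d2, also low, was listed at 0.63, 0.69 and 0.88 in the 3 libraries of high atrial genes and at 0.24 to 0.52 in the other 9.

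Of 8 further ventricle-enriched genes, 7 were tested, and over both treatments 1 was called higher and 2 lower, where 7.39% of all genes were called and 3.87% were lower, with a median log2 difference of -0.43 against -0.03 over all genes. The potassium channel partner Kcnip2 (-0.64, SE 0.11, adjusted p = 0.00634) and Pln, which encodes the calcium pump inhibitor phospholamban (-0.43, SE 0.11, adjusted p = 0.0326), fell, and the slow myosin heavy chain Myh7 rose (1.93, SE 0.44, adjusted p = 0.0228). Kcnd2 (-0.56, adjusted p = 0.0681), Gja1 (-0.47, adjusted p = 0.119), Irx3 (0.02, adjusted p = 0.949) and Irx5 (0.38, adjusted p = 0.248) were not called. Sarcolipin's target Atp2a2, the cardiac calcium pump, fell as well, from 3818 ± 441 in sham to 2662 ± 391 in AB (SD, n = 6 each; log2 difference -0.53, SE 0.10, adjusted p = 0.0112), with no overlap, as held in either direction for 4.96% of all genes.

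Among 10 other genes of the light chain family and its kinases, 8 were tested, and 2 were called higher and 1 lower over both treatments, where 7.39% of all genes were called. Myl12a, a regulatory light chain of nonmuscle myosin, rose from 898 ± 78.5 to 1381 ± 128 (SD, n = 6 each; 0.62, SE 0.07, adjusted p = 0.00118), and Myl6, a nonmuscle and smooth muscle essential chain, by 0.41 (SE 0.10, adjusted p = 0.0308). Mylk3, the cardiac kinase that phosphorylates Myl2, fell from 205 ± 18.8 to 146 ± 11.9 (-0.49, SE 0.08, adjusted p = 0.00462), and sham and AB mice did not overlap, as held in this direction for 2.8% of all genes. Myl1, the essential light chain of fast skeletal muscle, was called in DMSO+AB against DMSO+Sham (1.16, SE 0.29, adjusted p = 0.0407) and not over both treatments (0.64, adjusted p = 0.0810). Myl12b (0.20, adjusted p = 0.125), Myl6b (0.13, adjusted p = 0.526), Myl9 (0.05, adjusted p = 0.915) and Mylpf (-0.10, adjusted p = 0.743) were not called.

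None of the 10 partner factors and Notch genes was called by limma in any comparison. Over both treatments, 2 of the 10 (Gata6 and Heyl) had an unadjusted p under 0.05, against 23.3% of all genes, and Nkx2-5, the highest of them, ran from 42.0 to 78.9 FPKM. None of the 7 tested receptors and partners of Bmp10 was called either, with 3 (Acvrl1, Bmp4 and Eng) at an unadjusted p under 0.05 over both treatments, against the same 23.3%. Of the conduction markers, 0 of 3 tested were called and 0 had an unadjusted p under 0.05 over both treatments. Their summed FPKM was 10.7 in Hispidulin+Sham 3, the highest of all libraries, 6.65 in DMSO+AB 2 and 8.54 in Hispidulin+AB 3. The median was 7.12. Epicardial markers summed to 1.66 to 10.4, with the highest value in Hispidulin+AB 1, and the 3 libraries of high atrial genes were at 4.89, 1.98 and 2.21. Lung markers summed to at most 0.61 in any library and lymphocyte markers to at most 1.28. Of the markers of other tissue, Col1a1 of fibroblasts (1.42, adjusted p = 0.0236) and Tagln of smooth muscle (0.49, adjusted p = 0.043) rose over both treatments and Tnni2 of skeletal muscle fell (-0.67, adjusted p = 0.0156). Other markers on these lists went the other way without a call: Acta2 (-0.31, adjusted p = 0.678) and Myh11 (-0.13, adjusted p = 0.557) of smooth muscle were lower, and Tnnt3 of skeletal muscle, too low to be tested, averaged 0.523 FPKM in AB against 0.285 in sham. Acta2 was at 255 in Hispidulin+Sham 1 and at 19.4 to 82.5 elsewhere, so its differences that use this library lean on a single mouse. The skeletal muscle markers Myh1, Myh2, Myh4 and Actn3 were at most 0.14 FPKM in any library. None of the tested markers of epicardium (3), endothelium (4), endocardium (3), fat (1) or red cells (5) was called by limma there, and of these only the fat marker Cidea had an unadjusted p under 0.05. Cidea averaged 29.5 FPKM in AB against 25.6 in sham. The other fat markers, Adipoq, Plin1 and Ucp1, were too low to be tested, with at most 0.4, 0.22 and 0.05 FPKM in any library. In Hispidulin+Sham against DMSO+Sham all 3 endocardium markers (Cytl1, Npr3 and Plvap, with log2 differences of 0.80, 0.59 and 0.86), 2 red cell markers (Hbb-bs and Hbb-bt), Acta2 of smooth muscle (1.34) and Pdgfra of fibroblasts (0.26) had an unadjusted p under 0.05, as did 2.46% of all genes, with none called. In Hispidulin+AB against DMSO+AB, Cytl1 and Npr3 had one, as did Myh11 of smooth muscle (0.43) and 3.1% of all genes, with none called. Msln and Upk3b of the epicardium passed the filter on low values only through libraries of hispidulin-treated mice, so no test of them is given for that comparison. The part of these cells in the results was not tested.

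The number of genes called in all moved when single libraries were left out, whether or not they had high atrial genes. In DMSO+AB against DMSO+Sham 608 genes were called, and 104 without DMSO+AB 2, but 91 without DMSO+Sham 1 and 190 without DMSO+AB 3, neither of which had high Myl7. Without Hispidulin+Sham 3, the library highest in Myl7 but in neither group compared, 464 were called. With all 3 libraries left out 20 genes were called, which also leaves fewer mice per group. With the level of Myl4 and Myl7 as a covariate in place of leaving libraries out, 605 genes were called, 543 of them among the 608. Over both treatments, 862 genes were called with all libraries, 877 with the covariate (796 shared) and 73 with the 3 libraries left out (69 shared). In that comparison 614 were called without Hispidulin+Sham 3, against 436 and 408 without Hispidulin+Sham 1 and 2, which had low Myl7. The part of atrial RNA in these counts was not tested.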

How the data were processed

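Left ventricular RNA of 12 mice (3 per group) was sequenced as single-end 50-base reads on a BGISEQ-500. The authors deposited FPKM for 18079 genes, rounded to 0.01, which were used as deposited. The submitters' processing notes name HISAT2 2.0.4, Bowtie2 2.2.5, RSEM 1.2.12 and DESeq2 1.4.5. The genome build is not given in the sources used here. Steps between low values lay within 0.1 of whole multiples for 20.5% of 254 ratios (20% if evenly spread), so depth was not recovered.

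Symbols were matched for 99.3% of genes. The members and gene lists were chosen with earlier results of these data known. In R 4.3.3 with limma 3.58.1, log2(FPKM + 1) of genes with FPKM of at least 1 in at least 3 libraries was fitted with 1 mean per group over all 12 libraries, with a mean-variance trend, two-sided tests and Benjamini-Hochberg adjustment, calling at an adjusted p under 0.05. Log2 differences understate the change of low genes. Named were all members, all tested genes of the lists of other atrial, other ventricular and light chain genes, from other lists the called genes or the highest, and the 5 genes most correlated with Myl4, Myl7, Sln, Myl2 and Irx4. Genes named for a single library, for a low level, for an unadjusted p under 0.05 or for a direction opposite to a called gene were chosen after their values were seen.

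Replicate numbers belong to different animals. Residuals of same-numbered libraries correlated by 0.147 to 0.228 in Hispidulin+AB against Hispidulin+Sham and by 0.126 to 0.33 in Hispidulin+Sham against DMSO+Sham, where every pair exceeded 0.1, but by -0.198 to -0.0239 in DMSO+AB against DMSO+Sham and -0.183 to 0.3 in Hispidulin+AB against DMSO+AB. Promoters came from RefSeq (GRCm38.p6), which had an entry for 7 of the 9 members. Of 50-base words of the members' GENCODE transcripts, at most 4.19% (Myl3) occurred in another gene. The tests were checked on simulated data.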

Additional observations from a re-analysis of the deposited data

How the results depend on the processing

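The alternatives changed the value added (0.1), the filter (none, or a minimum FPKM of 5), the scaling (quantile normalization or median-of-ratios), the trend (none), the library weights, the replicate block, the animal number series as a further term, the libraries fitted (only those compared), the study's criteria, the mean of Myl4 and Myl7 as a covariate, and libraries left out. The cause was not tested for any of the changes.

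The 608 genes called in DMSO+AB against DMSO+Sham became 358 without the filter, 1423 with library weights, 142 with the animal number series, 11 with only the compared libraries, 20 without the 3 libraries, 0 with the study's criteria and 91 to 1050 with 1 library left out, moving by over 1.5 times without DMSO+Sham 1 (91) or 2 (1050), DMSO+AB 1 (953), 2 (104) or 3 (190), Hispidulin+Sham 1 (396) and Hispidulin+AB 1 (364) or 3 (390). The 862 over both treatments became 2535 with library weights, 547 with the series, 73 without the 3 libraries, 9 with the study's criteria and 373 to 1210 with 1 library left out, moving by over 1.5 times without DMSO+Sham 1 (457), Hispidulin+Sham 1 (436) or 2 (408), DMSO+AB 2 (507) and Hispidulin+AB 1 (443) or 3 (373). The 0 of Hispidulin+AB against Hispidulin+Sham became 2 without the filter, 2 with median-of-ratios scaling, 3 with quantile normalization, 209 with weights, 17 with the replicate block, 51 with only the compared libraries, 3 with the atrial covariate and 0 to 10 with 1 library left out. The 0 of Hispidulin+AB against DMSO+AB became 2 without the filter and 0 to 20 with 1 library left out, and the 0 of the interaction 0 to 3.

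Members called in DMSO+AB against DMSO+Sham went from 0 to 1 (Tbx5) with library weights, with the replicate block (adjusted p = 0.044) and without DMSO+Sham 2 (adjusted p = 0.0071; range 0 to 1 over single libraries), and in Hispidulin+AB against Hispidulin+Sham from 0 to 1 with weights and with only the compared libraries. Over both treatments the 1 became 0 with the series, without the 3 libraries and with the study's criteria. The samples of a replicate block share only a number in every comparison, and the block changed no other call of a member.

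Among the 5 members given a test, signs turned as follows. Tbx5 in Hispidulin+Sham against DMSO+Sham (0.163) was -0.0323 with library weights and -0.0626 to 0.292 with 1 library left out. Myl2 in DMSO+AB against DMSO+Sham (-0.00787) was 0.0132 with median-of-ratios scaling, 0.00678 with weights, 0.0231 without the 3 libraries and -0.146 to 0.153 with 1 library left out. Myl2 in Hispidulin+AB against Hispidulin+Sham (0.0212) was -0.0137 without the 3 libraries and -0.044 to 0.086 with 1 left out, and with 1 left out it ran -0.0184 to 0.281 in Hispidulin+Sham against DMSO+Sham and -0.0626 to 0.0869 over both treatments. Myl3 with quantile normalization was -0.0783 in DMSO+AB against DMSO+Sham, 0.0783 in Hispidulin+AB against DMSO+AB and -0.0392 over both treatments, and it ran -0.0324 to 0.138 with 1 library left out in Hispidulin+Sham against DMSO+Sham. Irx4 in Hispidulin+AB against DMSO+AB (-0.0328) was 0.079 without the 3 libraries and -0.257 to 0.113 with 1 left out. Hey2 in Hispidulin+Sham against DMSO+Sham (-0.0461) was 0.107 with the series and -0.17 to 0.0846 with 1 left out, and in Hispidulin+AB against DMSO+AB it ran -0.0566 to 0.285.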
